A study of Homo sapiens with 11 samples.

Results

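Nicotinic acetylcholine receptor subunits and the enzymes that make and break down the transmitter GABA were followed in IMR32 cells, a human neuroblastoma line that carries extra copies of MYCN. The 9 genes were CHRNA1, CHRNA3, CHRNA5, CHRNA7, CHRNB2, CHRNB4, GAD1, ABAT and ALDH5A1, taken as every probe set annotated to one of these symbols or a former alias. They had 18 of the 54613 probe sets tested, on 11 arrays, where 19775 genes had a representative probe set, and 8 of the 9 genes were among these. The 6 arrays labelled shMYCN came from cells given a virus with a hairpin directed at MYCN, with 2 arrays (A and B) at each of 24, 48 and 72 hours. The control virus, carrying the hairpin SHC002, had 1 array at each of those times, and 2 arrays came from cells without virus, labelled 0 hours. The MYCN hairpin is a single one (shMYCN#3), so its effects and those of any unintended target cannot be told apart.

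Nicotinic receptors are ion channels of 5 subunits that open on binding acetylcholine. In sympathetic ganglia and chromaffin cells, from whose lineage neuroblastoma arises, fast transmission runs mainly through channels that contain the CHRNA3 and CHRNB4 subunits, and CHRNA5 can join them as an accessory subunit. GABA is made from glutamate by GAD1, converted to succinic semialdehyde by the mitochondrial transaminase ABAT, and oxidised to succinate by ALDH5A1, a side route of the citric acid cycle known as the GABA shunt.

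No fall of the MYCN transcript itself was detected on the arrays labelled shMYCN, where only its brightest probe set was examined. Its brightest probe set, 209757_s_at, had signals of 5488.1 and 4567.4 at 24 hours, 5241.4 and 5316.9 at 48 hours and 5623.7 and 4946.5 at 72 hours on arrays A and B labelled shMYCN, against 5332.1, 5389.7 and 5055.3 with control virus and 5040.1 and 4507.4 without virus. The log2 fold change of shMYCN over control virus, as a mean over hours, was -0.020 ± 0.088 (standard error of the limma fit, adjusted p = 0.930). Directions given here are therefore those of the arrays labelled shMYCN, and whether the hairpin lowered MYCN protein was not measured. Whether a fall of the transcript would show at signals this high was not tested. Of 8 measured marker genes of noradrenergic neuroblastoma, 7 lay above the median probe set (PHOX2A, HAND2, GATA3, GATA2, DBH, ISL1 and CHGA), and TH did not. None of 4 Schwann and glial markers and none of 3 leukocyte markers did. Of 8 mesenchymal markers 6 did (SNAI2, TWIST1, FN1, VIM, COL1A1 and YAP1), with a summed signal of 4747.7 to 6066.5 on arrays labelled shMYCN, 5687.8 to 6574.8 with control virus and 5972.7 to 6059.0 without virus, and their part in the results was not tested. In cultures measured as a whole, fewer cells of a type and less RNA in each cell cannot be told apart.

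The sequences before the transcription starts of 4 genes are shown. CHRNA3 and CHRNB4 are neighbours that moved in opposite directions, ABAT changed most, and CHRNA7 alone of the 8 genes with a listed promoter has a CACGTG. Each is the stretch of 250 bases before a start in the RefSeq promoter table of build GRCh38.p14, written 5′ to 3′ on the strand of the gene. Capitals mark CACGTG (the E-box form that MYC proteins bind as dimers with MAX), CAGCTG (another E-box form) and GGGCGG (the GC box), read on both strands, so that CCGCCC is a GC box on the other strand.
CHRNA3 (chr15:78620997-78621246, minus strand): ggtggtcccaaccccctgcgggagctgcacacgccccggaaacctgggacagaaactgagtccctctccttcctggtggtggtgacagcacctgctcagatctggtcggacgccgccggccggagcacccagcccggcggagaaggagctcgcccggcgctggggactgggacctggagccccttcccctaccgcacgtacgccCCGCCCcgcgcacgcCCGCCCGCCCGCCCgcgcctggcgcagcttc
CHRNB4 (chr15:78641211-78641460, minus strand): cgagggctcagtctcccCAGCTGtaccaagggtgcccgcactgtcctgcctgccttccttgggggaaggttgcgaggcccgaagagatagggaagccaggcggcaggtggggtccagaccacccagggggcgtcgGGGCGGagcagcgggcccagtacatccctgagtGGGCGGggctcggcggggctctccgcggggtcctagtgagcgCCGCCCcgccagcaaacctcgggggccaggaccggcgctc
ABAT (chr16:8674367-8674616, plus strand): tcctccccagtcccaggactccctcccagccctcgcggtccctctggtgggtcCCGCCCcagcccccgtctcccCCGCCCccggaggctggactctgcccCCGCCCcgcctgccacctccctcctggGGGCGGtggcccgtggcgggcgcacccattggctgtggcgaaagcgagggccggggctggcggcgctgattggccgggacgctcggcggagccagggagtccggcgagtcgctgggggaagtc
CHRNA7 (chr15:32030233-32030482, plus strand): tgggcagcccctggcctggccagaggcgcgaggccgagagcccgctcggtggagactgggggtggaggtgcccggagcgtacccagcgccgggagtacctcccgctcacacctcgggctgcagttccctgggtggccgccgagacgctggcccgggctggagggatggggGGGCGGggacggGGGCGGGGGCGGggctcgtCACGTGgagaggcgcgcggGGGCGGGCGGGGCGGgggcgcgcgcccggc
The CHRNA3 stretch held GC boxes at -46, -31, -27 and -23 from the start, the last 3 of which overlap one another. The CHRNB4 stretch held a CAGCTG at -233 and GC boxes at -115, -82 and -40. The printed ABAT stretch held GC boxes at -197, -176, -150 and -123, and it belongs to the first of several ABAT promoters listed. The others, further along the gene, held no GC box, and the one from base 8713330 held a CAGCTG at 37. The CHRNA7 stretch had a CACGTG at -49 and GC boxes at -80, -68, -62, -30, -26 and -21, the last 3 of which overlap. No match of one motif overlapped a match of another.

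RefSeq listed 12 promoters for 8 of the 9 genes, each of 300 bases with 50 of them from the start on. CACGTG stood in 2 of the 12, both of them overlapping CHRNA7 windows, and in 7.3% of the 35116 promoters in the table. CAGCTG stood in 3 of the 12 and in 17.9% of all, and GGGCGG in 6 of the 12 and in 45.0% of all. A match is a run of letters and not a measured binding site.

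The main comparison asked which probe sets differed between the arrays labelled shMYCN and control virus, as the average of the differences at 24, 48 and 72 hours. ABAT rose 3.11-fold and 2.71-fold on its 2 bright probe sets, ALDH5A1 rose 1.38-fold on its bright one and CHRNA3 rose 1.21-fold to 1.23-fold. The dim probe sets of ABAT and ALDH5A1 did not pass. CHRNB4 and the probe set that CHRNA7 shares with CHRFAM7A fell. In all, 8 of the 18 probe sets passed an adjusted p of 0.05 in limma, 6 of them higher and 2 lower, beside 11.9% of all 54613 probe sets. Of the members' representatives, those of ABAT, ALDH5A1, CHRNA3 and CHRNB4 passed, beside 17.2% of the single representatives of the 19775 genes. Brighter probe sets passed more often, and 15 of the 18 lay above the median probe set. With only probe sets above the median kept, 9 of these 15 passed, beside 8264 of all 27306. The median log2 fold change of the 18 was 0.21, against 0.0085 over all probe sets. On 9 of the 18, both arrays labelled shMYCN were above the control virus array at all 3 hours (7 probe sets) or below it at all 3 (2 probe sets), and 20.0% of all probe sets did so. The 18 probe sets measure 9 genes and are not independent of one another.

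**Figure D1:**
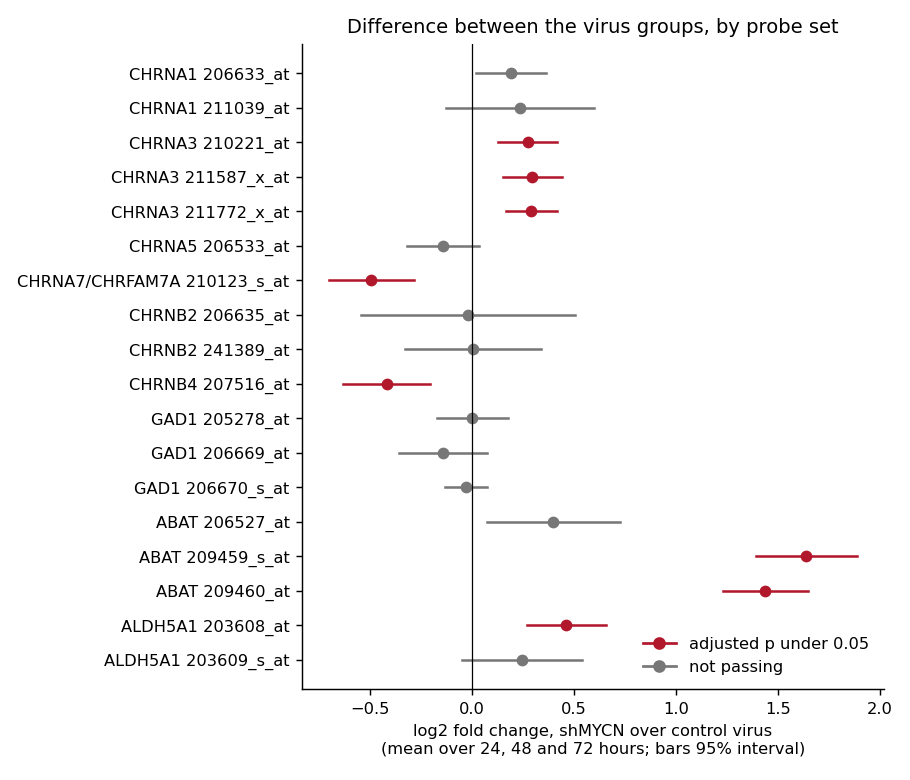
Log2 fold change of shMYCN over control virus as a mean over the 3 hours (horizontal axis, with 95% intervals) for each of the 18 probe sets (rows). Red marks an adjusted p under 0.05. Both bright ABAT probe sets stand at 1.64 and 1.44, those of CHRNA3 near 0.3, and those of CHRNB4 and CHRNA7/CHRFAM7A below 0.

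Among the receptor subunits, CHRNA3 had 3 probe sets and rose on each. Probe set 210221_at had signals of 2028.6 and 1942.4 at 24 hours, 2304.6 and 2389.6 at 48 hours and 2618.6 and 2296.9 at 72 hours on the arrays labelled shMYCN. It had 1775.2, 1890.1 and 1918.2 with control virus and 1802.7 and 1695.0 without virus. All 6 arrays labelled shMYCN thus lay above all 5 others. Its log2 fold change was 0.27 ± 0.06 (adjusted p = 0.0266).

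Probe set 211587_x_at gave the same picture for CHRNA3 hour by hour. It read 787.6 and 669.7, 872.5 and 875.5, and 973.2 and 894.4 at 24, 48 and 72 hours on arrays labelled shMYCN, against 585.7, 717.9 and 751.5 with control virus and 618.7 and 619.4 without virus. Its log2 fold change was 0.30 ± 0.06 (adjusted p = 0.0190). The lower array labelled shMYCN at 24 hours lay below the control virus arrays of the later hours, so the groups overlap when hours are pooled.

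The dimmest CHRNA3 probe set, 211772_x_at, gave 0.29 ± 0.05 (adjusted p = 0.0107). Its signals were 474.2 and 520.4, 690.4 and 653.2, and 774.9 and 734.5 at 24, 48 and 72 hours on arrays labelled shMYCN, against 480.1, 528.2 and 532.6 with control virus and 427.0 and 452.1 without virus. At 24 hours the arrays labelled shMYCN lay on both sides of the control virus array, and at 48 and 72 hours both lay above it. It alone of the CHRNA3 probe sets passed at 72 hours, at 0.49 ± 0.10 (adjusted p = 0.0145). Without the control virus array at 72 hours, which leaves the mean over 24 and 48 hours, none of the CHRNA3 calls remained. The log2 fold changes were then 0.23 on 210221_at (adjusted p = 0.171), 0.29 on 211587_x_at (adjusted p = 0.0939) and 0.19 on 211772_x_at (adjusted p = 0.193). The suffix x_at marks probe sets that may also match other transcripts, so the signal of those may not be of CHRNA3 alone.

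CHRNB4, the usual partner of CHRNA3 in ganglionic receptors and its neighbour on chromosome 15, moved the other way. Its probe set 207516_at had signals of 66.9 and 58.1 at 24 hours, 53.3 and 55.8 at 48 hours and 45.2 and 57.5 at 72 hours on arrays labelled shMYCN. The control virus arrays had 80.6, 88.9 and 70.9, and those without virus 76.9 and 67.6. Every array labelled shMYCN lay below every other array. The log2 fold change against control virus was -0.42 ± 0.09, or 0.75-fold (adjusted p = 0.0228). Against cells without virus it was -0.29 ± 0.11, which did not pass (adjusted p = 0.158). The call was also lost without the control virus array at 48 hours (-0.34, adjusted p = 0.129) or at 72 hours (-0.44, adjusted p = 0.0889), without array A labelled shMYCN at 72 hours (-0.37, adjusted p = 0.0552) and without array B labelled shMYCN at 24 hours (-0.39, adjusted p = 0.0661).

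CHRNA5, the third gene of that cluster, which overlaps the end of CHRNA3 in the annotation, did not pass in any comparison. Probe set 206533_at had signals of 214.5 and 181.8 at 24 hours and 225.8 and 197.0 at 48 hours on arrays labelled shMYCN, with 189.4 the lower of its values at 72 hours. It had 170.6, 261.0 and 249.0 with control virus and 218.0 and 192.8 without virus. The arrays labelled shMYCN were above the control virus array at 24 hours and below it at 48 and 72 hours. The mean log2 fold change was -0.14 (95% interval -0.32 to 0.034, adjusted p = 0.312). The strand that a probe set reads was not checked for this overlap.

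Of the other genes around the cluster, PSMA4, MORF4L1 and HYKK had a probe set, and none passed. PSMA4, a proteasome subunit, had a log2 fold change of -0.19 ± 0.07 (adjusted p = 0.138) and MORF4L1, a chromatin protein, 0.099 ± 0.096 (adjusted p = 0.609). The median over these 3 genes was 0.099.

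CHRNA7, whose subunit can form receptors by itself, had no probe set of its own. Probe set 210123_s_at is annotated to CHRNA7 and to CHRFAM7A, a human gene that holds a partial copy of it, and the signal of one cannot be separated from that of the other. It read 52.8 and 67.5, 58.0 and 60.3, and 57.0 and 57.0 at 24, 48 and 72 hours on arrays labelled shMYCN, against 78.7, 89.5 and 99.6 with control virus and 71.4 and 84.5 without virus. All 6 arrays labelled shMYCN lay below the other 5. The log2 fold change was -0.49 ± 0.09, or 0.71-fold (adjusted p = 0.0101), and -0.66 ± 0.16 at 72 hours (adjusted p = 0.0339).

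The shared probe set's difference from cells without virus, -0.33 ± 0.11, did not pass (adjusted p = 0.109). Without the control virus array at 72 hours, the mean difference was -0.41 and no longer passed (adjusted p = 0.107). The promoter with CACGTG printed above is that of CHRNA7, and no promoter of CHRFAM7A was used here.

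CHRNA1, the alpha subunit of the receptor at the neuromuscular junction, changed with time in both virus groups. Probe set 206633_at had signals of 157.1 and 137.8 at 24 hours, 220.2 and 184.1 at 48 hours and 369.1 and 339.0 at 72 hours on arrays labelled shMYCN, against 126.5, 169.3 and 317.3 with control virus. Cells without virus had 101.8 and 96.8. In both virus groups the order was 72, 48 and then 24 hours, and every virus array lay above both arrays without virus.

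At each hour the CHRNA1 arrays labelled shMYCN lay above the control virus array, but the mean difference, 0.19 ± 0.08, did not pass (adjusted p = 0.155). Within the arrays labelled shMYCN, CHRNA1 rose 2.27-fold at 72 over 24 hours (log2 1.18 ± 0.11, adjusted p = 0.000480). The same difference between the single control virus arrays was 1.23 on the log2 scale. The difference between both virus groups at 72 hours minus that at 24 hours was -0.046 (95% interval -0.47 to 0.38, adjusted p = 0.959).

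Against cells without virus, CHRNA1 was 2.05-fold higher as a mean over hours on arrays labelled shMYCN (log2 1.03 ± 0.09, adjusted p = 0.000350). Control virus was 1.79-fold higher than no virus (log2 0.84 ± 0.10), which did not pass over all probe sets (adjusted p = 0.275) and passed with 1 probe set a gene and the dimmest left out (adjusted p = 0.0166) or with only the dimmer 50% of probe sets left out (adjusted p = 0.0387). The dimmer probe set 211039_at read 14.7 and 20.2, 30.8 and 18.7, and 47.5 and 37.4 on arrays labelled shMYCN, 11.9, 21.5 and 29.8 with control virus and 5.9 and 12.9 without virus. It passed against no virus at 0.77 ± 0.18 (adjusted p = 0.0377) and, among all its comparisons, only there. That call of CHRNA1 was kept with 5 of 11 arrays left out in turn, and without no virus array 1 the value was 0.57 (adjusted p = 0.322). Time in culture and virus cannot be told apart in comparisons with cells without virus.

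Of 5 skeletal muscle markers, CKM alone lay above the median probe set, and MYOD1, MYOG, ACTA1 and DES did not. Their summed signal was 34.2 to 93.4 on arrays labelled shMYCN, 50.2 to 91.1 with control virus and 75.0 to 96.5 without virus. These ranges overlap. They pool the hours, so the sum was not compared with CHRNA1 by hour, and a link between them was not tested.

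CHRNB2, the main beta subunit of brain nicotinic receptors, had a pair of dim probe sets that passed nowhere. Probe set 241389_at read 25.6 and 30.8, 45.2 and 41.7, and 51.7 and 48.4 at 24, 48 and 72 hours on arrays labelled shMYCN, against 40.2, 39.1 and 39.2 with control virus and 57.3 and 30.9 without virus. Its mean log2 fold change was 0.0061 (95% interval -0.33 to 0.34, adjusted p = 0.988), and the groups overlapped. Probe set 206635_at ranged from 12.4 to 35.1 on arrays labelled shMYCN, from 15.1 to 31.0 with control virus and from 10.1 to 32.3 without virus.

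**Figure D2:**
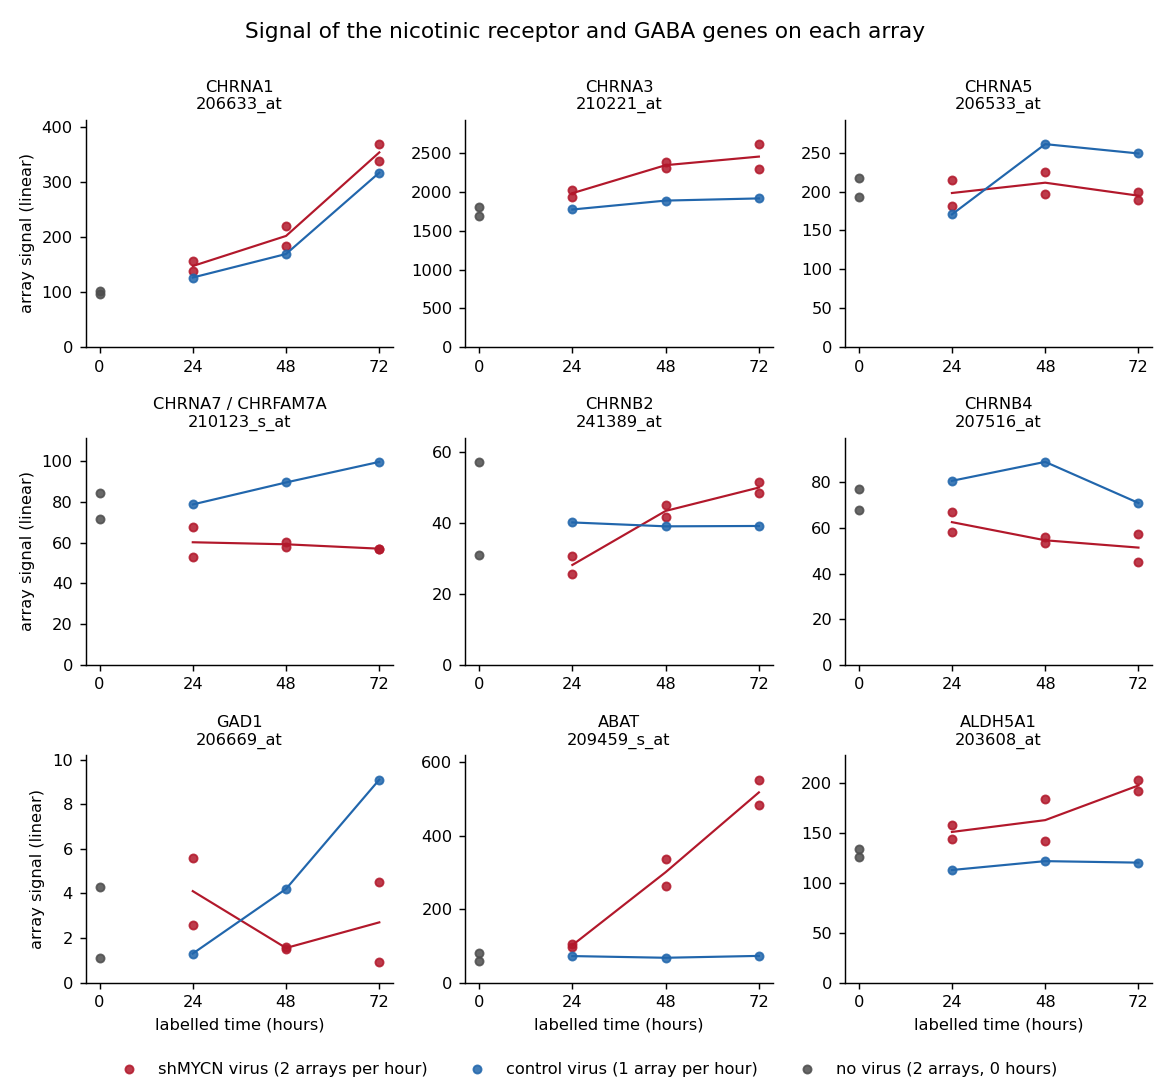
Signal (linear scale from 0) against labelled time in hours for the representative probe set of each gene, and for CHRNA7 the probe set shared with CHRFAM7A. Points are single arrays, red for shMYCN, blue for control virus and grey for no virus, and lines join group means. ABAT reaches 552.4 and 482.8 with shMYCN at 72 hours, and CHRNA1 climbs in both virus groups.

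Among the GABA enzymes, ABAT changed most. Probe set 209459_s_at had signals of 97.7 and 105.8 at 24 hours, 337.6 and 263.2 at 48 hours and 552.4 and 482.8 at 72 hours on arrays labelled shMYCN. It had 72.1, 67.5 and 72.6 with control virus and 80.7 and 59.1 without virus. Every array labelled shMYCN lay above all the others, and its levels at the 3 hours did not overlap. The mean log2 fold change was 1.64 ± 0.11 (adjusted p = 7.67e-05).

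By hour, that ABAT probe set differed from control virus by 0.42 ± 0.19 at 24 hours (adjusted p = 0.530), 1.91 ± 0.19 at 48 hours (adjusted p = 0.00221) and 2.59 ± 0.19 at 72 hours (adjusted p = 0.000210), the last a 6.01-fold rise. The difference at 72 hours exceeded that at 24 hours by 2.17 ± 0.27 (adjusted p = 0.0149). ABAT in control virus cells stayed near the level without virus, at 0.025 ± 0.14 on the log2 scale (adjusted p = 1.00).

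A second ABAT probe set, 209460_at, read 71.7 and 57.9, 158.3 and 125.8, and 364.5 and 360.9 at 24, 48 and 72 hours on arrays labelled shMYCN, against 55.0, 45.0 and 39.7 with control virus and 50.8 and 51.8 without virus. It too was higher on all 6 arrays labelled shMYCN than on any other. The mean log2 fold change was 1.44 ± 0.09 (adjusted p = 6.52e-05), and that at 72 hours was 2.77 ± 0.16, or 6.80-fold (adjusted p = 8.22e-05). The excess of 72 over 24 hours was 2.58 ± 0.22 (adjusted p = 0.00493). Without the control virus array at 72 hours, the mean differences fell to 1.16 and 0.77 for the 2 probe sets and still passed (adjusted p = 0.00382 and 0.0106).

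The third ABAT probe set, 206527_at, was dim and did not pass. Its signals were 17.8 and 10.0, 24.8 and 16.1, and 27.5 and 22.5 at 24, 48 and 72 hours on arrays labelled shMYCN, against 10.1, 10.6 and 11.6 with control virus and 12.1 and 8.8 without virus. It was higher than control virus at 48 and 72 hours and overlapped it at 24 hours. The log2 fold change, 0.40 ± 0.14 (adjusted p = 0.121), is on log2 of signal plus 16, which understates folds of dim probe sets.

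**Figure D3:**
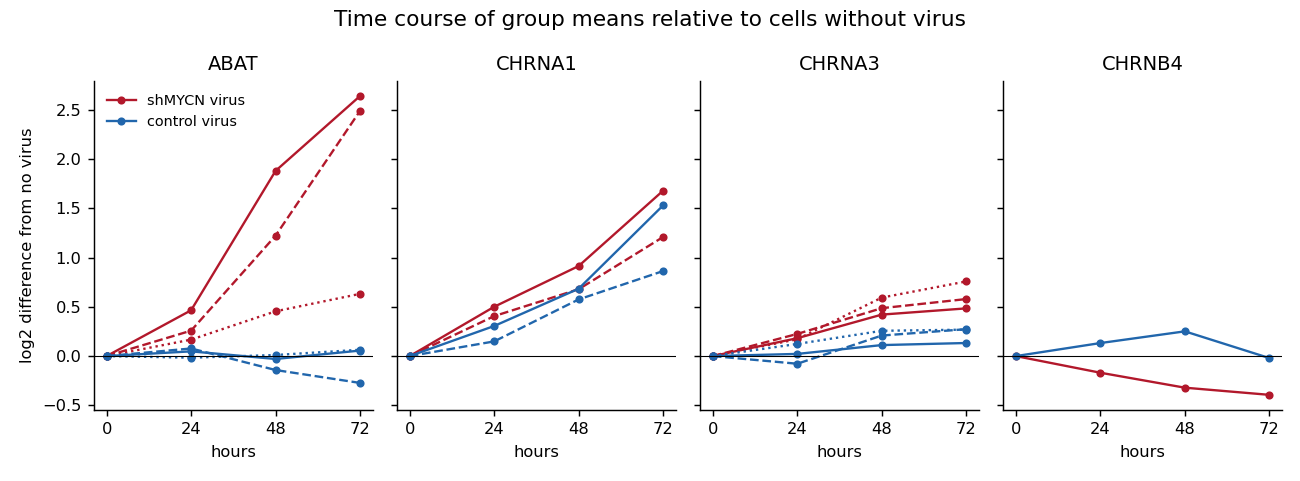
Group means as log2 differences from the mean of the arrays without virus (vertical axis) against labelled time in hours, for ABAT, CHRNA1, CHRNA3 and CHRNB4. Line styles are the probe sets of a gene, with the representative solid, and red is shMYCN and blue control virus. The solid ABAT line reaches 2.64 with shMYCN and 0.056 with control virus at 72 hours, while CHRNA1 reaches 1.68 and 1.53.

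ALDH5A1, the next enzyme of the shunt, rose less. Probe set 203608_at had signals of 157.8 and 144.1, 183.9 and 141.7, and 191.7 and 203.4 at 24, 48 and 72 hours on arrays labelled shMYCN. The control virus arrays had 112.8, 121.7 and 120.2, and those without virus 133.8 and 126.1. The arrays labelled shMYCN lay above the others at every hour. The mean log2 fold change was 0.46 ± 0.08, or 1.38-fold (adjusted p = 0.00931), and at 72 hours 0.65 ± 0.15 (adjusted p = 0.0273).

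Against no virus, the ALDH5A1 difference of 0.34 ± 0.10 did not pass (adjusted p = 0.0739). Without the control virus array at 72 hours the mean difference was 0.37 and no longer passed (adjusted p = 0.107). The dim probe set 203609_s_at read 16.4 to 27.1 on arrays labelled shMYCN, 14.0 to 16.7 with control virus and 11.7 to 16.4 without virus, and gave 0.24 ± 0.13 (adjusted p = 0.296).

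GAD1, the enzyme that makes GABA, was at the bottom of the scale. Its 3 probe sets had mean signals of 3.336, 0.973 and 0.882, at the percentiles 19.8, 2.6 and 2.2 of all probe sets, where signal and background cannot be separated. The brightest, 206669_at, read 2.6 and 5.6, 1.5 and 1.6, and 0.9 and 4.5 at 24, 48 and 72 hours on arrays labelled shMYCN, against 1.3, 4.2 and 9.1 with control virus and 1.1 and 4.3 without virus. None of the 3 passed in any comparison. Among 6 markers of forebrain inhibitory neurons, a cell type that uses GAD1, DLX5 and LHX6 lay above the median probe set, and DLX1, DLX2, GAD2 and SLC32A1 did not.

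The number of calls among the 18 probe sets grew with the hour. At 24 hours 0 passed in limma, beside 0.0293% of all probe sets. Of the 18, 2 had an unadjusted p under 0.05, beside 5312 of all 54613. At 48 hours 2 passed, both of ABAT and higher, beside 1803 of all 54613 probe sets in either direction and 1.46% that were higher. At 72 hours 5 passed, 4 higher and 1 lower, beside 10.0% of all probe sets. Of the members' representatives those of ABAT and ALDH5A1 passed at 72 hours, beside 14.7% of all gene representatives. The 72-hour difference exceeded the 24-hour one on the 2 bright ABAT probe sets, beside 0.467% of all in that direction. That share rests on 255 probe sets, against 361 with quantile normalization, 146 with median scaling and 6 to 10 without any 1 of the arrays labelled shMYCN at 24 or 72 hours. On simulated data, in probe sets well above the median, 26% of 1.5-fold changes were recovered at 24 hours and 18% at 72 hours. The mean over hours recovered 78% of 1.5-fold changes, so single hours can miss changes of that size. Changes as small as those seen for CHRNA3 and CHRNB4 were not simulated, and their recovery is not known.

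Within the arrays labelled shMYCN, 5 of the 18 probe sets were higher at 72 than at 24 hours and none lower, beside 5.82% of all that were higher. In either direction 6000 of all 54613 passed. The 5 belonged to ABAT (log2 2.18 ± 0.15 and 2.23 ± 0.13), CHRNA1 and CHRNA3 (0.59 ± 0.08 on 211772_x_at and 0.35 ± 0.09 on 211587_x_at). On 211587_x_at the single control virus arrays also differed by 0.35 between these hours, and the difference between both virus groups was 0.0032 larger at 72 than at 24 hours (adjusted p = 0.997). That call of CHRNA3 was kept with 6 of 11 arrays left out in turn, and without array B labelled shMYCN at 24 hours the value was 0.24 (adjusted p = 0.217). CHRNB4, at -0.22 ± 0.13, did not pass (adjusted p = 0.371).

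Against cells without virus, 7 of the 18 were higher on arrays labelled shMYCN and none lower, beside 4.41% of all that were higher and 4622 of all 54613 in either direction. The 7 were both CHRNA1 probe sets, all 3 of CHRNA3 (log2 0.36 to 0.51) and the bright pair of ABAT (1.66 ± 0.13 and 1.33 ± 0.11). The CHRNA3 calls were lost without no virus array 1 (adjusted p = 0.132 on 210221_at, 0.113 on 211587_x_at and 0.0570 on 211772_x_at). Without no virus array 2, 210221_at (adjusted p = 0.235) and 211587_x_at (adjusted p = 0.115) lost theirs. This comparison shares its 6 arrays labelled shMYCN with the one against control virus. Control virus against no virus gave 0 calls among the 18 and 0% of all in limma, with an unadjusted p under 0.05 for 3 of the 18 and 3180 of all 54613.

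Over the 11 arrays, ABAT and CHRNA3 signals ran together (Pearson r = 0.94) and ABAT and CHRNB4 in opposition (r = -0.84), given as a description over arrays that share groups. ABAT and ALDH5A1 had r = 0.90. The genes most like ABAT among 11879 were KPNA5 (r = 0.995), TMTC4 (0.993) and TBPL1 (0.992). Those most like CHRNA3 were SOX11 (0.985), AHCYL1 (0.977) and HAGH (0.976). For ALDH5A1 they were SRRM4 (0.975), RTN4IP1 (0.969) and ZNF25 (0.968), and for CHRNB4 TSPO (0.953), UTP20 (0.948) and LMCD1 (0.943).

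Other genes of acetylcholine and GABA signalling were described by 9 lists with 94 genes, of which 82 had a probe set. In the mean over hours 5 of the 82 rose and 7 fell, beside 17.2% of the representatives of all genes. Of 9 other nicotinic subunits none passed, with a median log2 fold change of 0.0012 against 0.013 over all gene representatives. Only 4 of the 9 lay above the median probe set, so dim signals limit what this median can show. Of 5 muscarinic receptors, 2 of them above the median probe set, none passed either, with a median of 0.0050.

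Among 11 proteins that help assemble or bind nicotinic receptors, 1 rose and none fell, with a median of 0.025. Of the 11, 6 lay above the median probe set. TMEM35A, a chaperone needed for nicotinic receptor assembly, had signals of 208.3 to 378.6 on arrays labelled shMYCN, 184.1 to 197.4 with control virus and 176.8 to 192.6 without virus, and the arrays labelled shMYCN overlapped neither of the other groups. Its log2 fold change was 0.51 ± 0.07 (adjusted p = 0.00202), and 0.79 at 72 hours (adjusted p = 0.00388). LYNX1, a membrane-anchored modulator of the receptors, read 5.6 to 36.3, 30.9 to 58.6 and 17.8 to 26.4 in the same order of groups and did not pass (-0.87 ± 0.24, adjusted p = 0.0528).

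Of 7 genes for acetylcholine synthesis, transport and breakdown, 1 rose and 1 fell, with a median of -0.0048. BCHE, which encodes butyrylcholinesterase, read 67.8 to 191.2 on arrays labelled shMYCN, 61.4 to 75.9 with control virus and 72.3 to 74.8 without virus. It rose by 0.68 ± 0.12 (adjusted p = 0.00847). CHAT, the acetylcholine-making enzyme, read 34.0 to 57.7 on arrays labelled shMYCN, 62.9 to 85.9 with control virus and 61.8 to 63.9 without virus. The arrays labelled shMYCN lay below all the others, and CHAT fell by 0.50 on the log2 scale (adjusted p = 0.0414).

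In the list of GABA synthesis and transport, 1 of 9 rose and 1 fell, with a median of -0.032, and 4 of the 9 lay above the median probe set. The glutamate dehydrogenase gene GLUD1 fell by 0.28 (adjusted p = 0.0173), and its other probe set passed too at -0.49. SLC32A1, the vesicular GABA transporter, passed at 0.50 ± 0.11 (adjusted p = 0.0224), but its signals were 0.8 to 22.8 on arrays labelled shMYCN, 0.6 to 3.0 with control virus and 2.1 to 7.6 without virus, a dim range in which the groups overlap. GLUL, glutamine synthetase, did not pass (0.21 ± 0.07, adjusted p = 0.0933).

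Among 12 enzymes around the shunt, most of them of the citric acid cycle, none rose and 3 fell. Over all 19775 gene representatives 1482 fell. The median of the 12 was -0.0056 as a mean over hours and -0.23 at 72 hours. DLST, a core subunit of the oxoglutarate dehydrogenase complex, read 69.5 to 95.1 on arrays labelled shMYCN, 142.6 to 226.1 with control virus and 139.3 to 179.3 without virus. It fell by 1.08 on the log2 scale (adjusted p = 0.000248), and every array labelled shMYCN lay below every other array. OGDH, another subunit of that complex, gave -0.51 ± 0.09 (adjusted p = 0.0103), but its 2 other probe sets, at -0.34 and -0.056, did not pass. SDHD, a subunit of succinate dehydrogenase, gave -0.29 ± 0.08 (adjusted p = 0.0404), and its other probe set, at 0.074, did not pass.

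Of 17 GABA receptor genes, 5 lay above the median probe set. GABRA5 alone passed, and the median log2 fold change was 0.051. Its signal was 57.7 to 119.8 on arrays labelled shMYCN, 135.4 to 147.8 with control virus and 128.3 to 144.9 without virus, and it fell by 0.65 (adjusted p = 0.00159). Both other GABRA5 probe sets were lower too, at -0.53 and -0.47. Of 9 genes for scaffolds and traffic of these receptors, 2 rose and 1 fell, with a median of 0.023.

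GABARAP, which binds GABA receptors and also serves autophagy, read 404.3 to 1962.2 on arrays labelled shMYCN, 2693.3 to 3154.9 with control virus and 2796.3 to 2974.6 without virus. The transport adaptors TRAK2 and TRAK1 rose by 0.83 ± 0.05 and 0.42 ± 0.06 (adjusted p = 7.70e-05 and 0.00342). Of the 4 other TRAK1 probe sets 1 passed, higher as well.

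**Figure D4:**
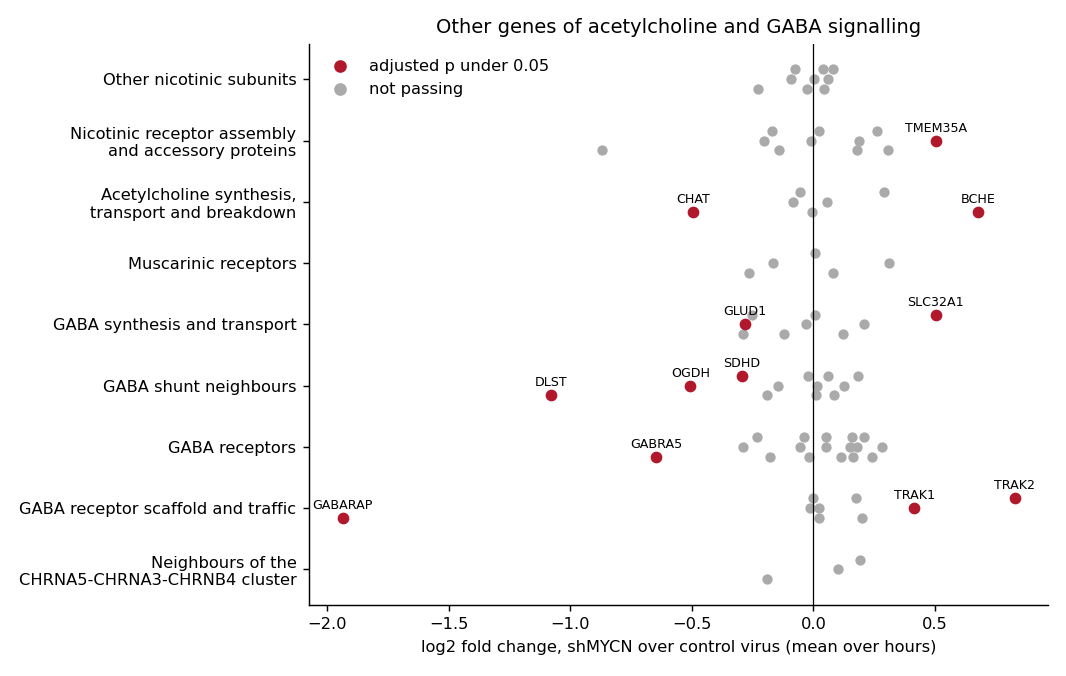
Log2 fold change of shMYCN over control virus as a mean over the 3 hours (horizontal axis) for the representative probe set of each gene in the 9 lists (rows). Red points passed an adjusted p of 0.05 and are named. The 12 named genes are 5 higher and 7 lower, with GABARAP and DLST farthest below 0.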

How the data were processed

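The deposited values are linear signal intensities of 54675 probe sets on 11 one-colour arrays, and MAS5 and GCOS are named in the submitters' processing notes. The deposited intensities average 100.0 over the middle 96 percent of probe sets on every array, so a change in total RNA cannot be seen. For background correction, detection calls and genome build nothing is given in the sources used here. Probe sets took their symbol from the platform annotation, updated through Entrez numbers for 41037 of them with the RefSeq table. Of the 54613 tested, 41091 had 1 symbol, 1801 several and 11721 none here, and 62 control probe sets were left out.

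log2(signal + 16) was fitted as 7 group means over all 11 arrays in R 4.3.3, using lmFit, contrasts.fit and a trended eBayes of limma 3.58.1, with 4 residual and 4.25 prior degrees of freedom. All p-values were two-sided and Benjamini-Hochberg adjusted over all 54613 probe sets, at a threshold of 0.05 with no filter on dim ones. Errors are standard errors of this fit. The 4 groups of 2 arrays give the spread, and single control virus arrays are assumed to vary like them. Nothing in the labels ties A and B to separate cultures. The p-values hence cover array-to-array spread, which may be technical. Replicate arrays correlated at 0.988 to 0.993. Array medians were 14.9 to 16.6, and the number of arrays limits the precision.

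All probe sets of the 9 genes were reported. The brightest probe set by mean log2 value stood for a gene, and from each list up to 4 genes with the smallest p could be named. Signals of different probe sets were not compared. Members and lists were chosen with earlier results of these data known. The letters A and B were not used to pair arrays in the main fit. Their differences correlated at -0.011 to 0.049 between hours, which cannot tell whether A and B were separate series of cultures. On simulated data 100 percent of 2-fold changes were recovered in the mean over hours, with 2 false calls among 54613 probe sets. Changes were placed only in probe sets above a cutoff brighter than CHRNB2 241389_at, which is at percentile 64.3. Both CHRNB2 probe sets, the GAD1 ones and the dimmest of CHRNA1, ABAT and ALDH5A1 lay below it. Probe sets of like brightness got the same independent spread. Recovery in dim probe sets, or with a deviating control virus array, was not simulated. Alternatives were other offsets, quantile and median scaling, filters, 1 probe set a gene, no trend, a replicate block, an additive model, a threshold of 0.01 and each array left out.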

Additional observations from a re-analysis of the deposited data

Results flagged for a closer look

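The difference between shMYCN and control virus at 72 hours was not the one at 24 hours for both bright ABAT probe sets, by the tested contrast of the hours. The log2 excess at 72 hours was 2.17 on 209459_s_at (limma adjusted p = 0.0149), where all 4 arrays labelled shMYCN at these hours were above the control virus array of their hour. On 209460_at it was 2.58 (adjusted p = 0.00493), again with all 4 above. Both calls were lost without either array labelled shMYCN at 72 hours, where the excess was 2.08 without A (adjusted p = 0.0839) and 2.26 without B (adjusted p = 0.0720) on 209459_s_at, and 2.58 (adjusted p = 0.0563) and 2.59 (adjusted p = 0.0513) on 209460_at. The ABAT call on 209459_s_at was also lost without array A (2.12, adjusted p = 0.0925) or B (2.22, adjusted p = 0.0850) labelled shMYCN at 24 hours, and in the fit without trend (adjusted p = 0.0615).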

How the results depend on the processing

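No result of the 18 probe sets that passed changed its direction in any setting run. Over the settings with all arrays, 1149 of 1202 values for single probe sets kept their direction and their side of the threshold, 21 lost the threshold, 20 gained it and 12 that had not passed changed sign. With arrays left out, 1379 of 1494 did so, 52 lost it, 8 gained it and 55 that had not passed changed sign. The mean over hours had 8 calls among the 18. It had 4 with 1 probe set a gene, where at most 1 per gene is tested, 3 at a threshold of 0.01, and 2 to 9 with each array left out. The fewest, 2, came without the control virus array at 72 hours, and 5 came without that at 48 hours or without array A labelled shMYCN at 72 hours. The 72-hour comparison had 5 calls, against 3 with 1 probe set a gene, 2 at 0.01 and 2 to 5 with arrays left out. The fewest came without either array labelled shMYCN at 72 hours, and 3 came without either array of no virus. The 72 minus 24 hour difference had 2 calls, against 1 with 1 probe set a gene, 1 without trend, 1 at 0.01 and 0 to 2 with arrays left out. It had 0 without either array labelled shMYCN at 72 hours and 1 without either at 24 hours. Within shMYCN, 72 over 24 hours had 5 calls and 8 with the dimmer 50 percent of probe sets removed. Control virus against no virus had 0, and 1 (CHRNA1) with that filter or with 1 probe set a gene. Against no virus shMYCN had 7 calls, 4 with 1 probe set a gene and 3 to 8 with arrays left out, the fewest without no virus array 1, and 4 without array 2.

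The replicate block of letters A and B left 8 calls in the mean over hours, and what the letters stand for is not known. CHRNA3 210221_at lost its call under median scaling (0.23, adjusted p = 0.0646) and without trend (adjusted p = 0.0516), and 211772_x_at in the additive model (adjusted p = 0.0513). With each of 11 arrays left out, the mean-over-hours call was kept 4 times on CHRNA3 210221_at, 8 times on 211587_x_at, 10 on 211772_x_at, 7 on CHRNB4, 10 on CHRNA7/CHRFAM7A, 10 on ALDH5A1 203608_at and 11 on each bright ABAT probe set. For 211587_x_at it was lost without the control virus array at 48 hours (0.30, adjusted p = 0.0514) or 72 hours, or array A labelled shMYCN at 72 hours (0.28, adjusted p = 0.0546). With each of 10 arrays left out, the 72-hour call was kept 4 times on ALDH5A1 203608_at, 6 on CHRNA7/CHRFAM7A and 8 on 211772_x_at. The cause of these changes was not tested. Over all probe sets, the mean over hours had 3459 higher and 3035 lower calls, against 2564 and 3381 under median scaling. It had 3196 calls in all at 0.01, 4313 in the additive model, and 1731 without the control virus array at 72 hours, beside 6494. Signals near the dim end limit GAD1, CHRNB2 and the third ABAT probe set.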
